A study of Mus musculus with 28 samples.

Results

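The genes described here are 36 autophagy and lysosome genes, taken by symbol from a fixed list and matched to the mouse Ensembl identifiers of the liver count table. They comprise 20 genes of the autophagy machinery and 16 lysosomal genes, among 21935 genes in the table. All 36 had enough counts to be tested, as did 12580 genes in all. Hepatic messenger RNA was sequenced from 28 male B6.V-Lepob/JRj mice, an obese strain without functional leptin, which arrived at 5 weeks of age. Every mouse was fed the Amylin liver NASH (AMLN) diet for 14 weeks, and then dosed orally once daily for 2 weeks with the diet continued. The vehicle group (0.5% carboxymethylcellulose) held 10 mice, the obeticholic acid (OCA) 30 mg/kg group held 9, and the INT-787 30 mg/kg group held 9. No lean or untreated mice are in the series, so each value describes treatment within steatohepatitis and not the disease itself.

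Autophagy encloses cell contents in a membrane that closes into an autophagosome and fuses with a lysosome, where acid hydrolases digest the cargo. In liver it supplies amino acids during fasting and turns over lipid droplets, mitochondria, and protein aggregates. The bile acid receptor FXR, which both drugs activate, is known as a repressor of autophagy genes in the fed liver, whereas TFEB, a transcription factor controlled by nutrients, induces autophagy and lysosome genes through a short promoter element that contains CACGTG. Lysosomal proteases are abundant in macrophages as well as hepatocytes. In a sample of whole liver, fewer cells of a type and less RNA per cell cannot be told apart.

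The TFEB element was searched in the 250 bases before each start that RefSeq annotates for a gene (build GRCm38.p6), because it is the sequence feature by which many genes of this kind are known. A RefSeq start can lie inside the longer gene span of the annotation used for the counts. Of the 36 genes, 30 had a window (4 of them more than 1), and CACGTG was present in 10 of them (*Atg3*, *Atg5*, *Atg7*, *Ctsa*, *Ctsd*, *Ctsl*, *Gaa*, *Glb1*, *Lamp1*, and *Mcoln1*). The same motif was present in 6.86% of 27025 genes with a window and in 9.85% of the 9982 tested genes with one. The longer form TCACGTGA, which contains the shorter, was present in 4 of the 30 (*Atg3*, *Ctsa*, *Ctsd*, and *Mcoln1*) against 0.907% of all genes and 1.73% of tested genes. Both motifs read the same on either strand. The inverted repeat with 1 base between its arms (IR-1), the classic FXR element, was searched in its ideal form on both strands and had 0 matches in these windows and 2 among all genes. A match in these letters is a description of the sequence and no measure of binding.

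The runs below are printed in the direction of transcription with CACGTG in capitals. *Lamp1*, among the genes with the highest level per length, carried 4 matches on the plus strand (chr8:13159080-13159160), the last of them ending 10 bases before the RefSeq start. *Mcoln1* (chr8:3500428-3500499, plus strand) and *Atg3* (chr16:45158715-45158783, plus strand) carried 2 matches each. *Ctsa* (chr2:164833741-164833772, plus strand) and *Ctsd* (chr7:142387900-142387945, minus strand) are shown as lysosomal proteases with the longer form. *Ctsd* held 2 matches, of which the one nearer the RefSeq start is printed, and the other ended 240 bases before the RefSeq start. *Ctsl* (chr13:64370731-64370770, minus strand) and *Atg7* (chr6:114670944-114670989, plus strand) are shown because they are the only genes with a match that changed with either drug, and they changed in opposite directions. Against the GENCODE M21 spans of the genes, the runs of *Lamp1* and *Atg3* lie before the gene and that of *Mcoln1* crosses its start. Those of *Ctsd*, *Ctsl*, *Ctsa*, and *Atg7* lie inside it, with their first bases 93, 120, 868, and 27847 bases past the 5′ end, so each of these 4 stands before a start internal to the span.
Lamp1: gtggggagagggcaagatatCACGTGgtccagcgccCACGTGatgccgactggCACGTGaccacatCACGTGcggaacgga
Mcoln1: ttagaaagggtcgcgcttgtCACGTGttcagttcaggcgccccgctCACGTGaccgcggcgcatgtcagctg
Atg3: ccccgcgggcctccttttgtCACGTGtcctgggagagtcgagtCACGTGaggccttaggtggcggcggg
Ctsa: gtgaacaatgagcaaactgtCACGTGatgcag
Ctsd: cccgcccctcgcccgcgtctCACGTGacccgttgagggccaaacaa
Ctsl: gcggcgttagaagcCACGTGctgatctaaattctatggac
Atg7: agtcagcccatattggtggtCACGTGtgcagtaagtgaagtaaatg

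Total counts per mouse were 1009593 to 18342272 with vehicle, 10990531 to 22421506 with OCA, and 12513715 to 22128216 with INT-787. Vehicle replicate 6 had the lowest total, and the lowest count of any of the 36 genes in it was 14 (*Tfeb*). Vehicle replicate 5 stood apart in another way. *Cntd1* shares 3104 exon bases with *Becn1* on the opposite strand. Without scaling between libraries, it was at 21.3 counts per 1e6 total counts in that mouse and at most at 0.268 in the other 27. *Grtp1*, opposite *Lamp1*, was at 159 on this scale against at most 15.6. Of 11 genes in the count table that lie opposite one of the 36 with shared exon bases, 3 were highest in this mouse. In all, 13 of the 36 genes share exon bases with a gene on the opposite strand. How well this library kept the strands apart, and its part in the vehicle means of these genes, was not tested. Calls that change without both mice are given beside the gene. As a check of treatment, *Slc51b*, a bile acid exporter subunit induced by FXR, rose with OCA (log2 fold change 2.68) and INT-787 (3.31), and *Cyp7a1*, whose enzyme opens bile acid synthesis, fell with both (-2.54 and -2.28).

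Levels are given as mean ± SD over the mice of a group. Divided by the length of a gene's exons, levels spanned a wide range in vehicle mice. The highest were *Lamp1*, a heavily glycosylated protein of the lysosomal membrane, at 427 ± 32.8 CPM per kilobase and *Psap*, the precursor of the saposins, at 424 ± 57.1, a difference smaller than the spread between mice. The lowest were *Atg16l1* at 1.74 ± 0.51 and *Tfeb* at 1.76 ± 0.33 CPM per kilobase, which likewise could not be ordered. The median was 90.1 CPM per kilobase over the 16 lysosomal genes and 8.71 over the 20 autophagy genes. The length is that of all annotated exons of a gene merged, not of the transcripts expressed. Values per kilobase therefore compare only roughly between genes. Within the autophagy machinery, *Sqstm1* (187), *Gabarap* (173), and *Gabarapl1* (137) stood far above the rest.

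**Figure D1:**
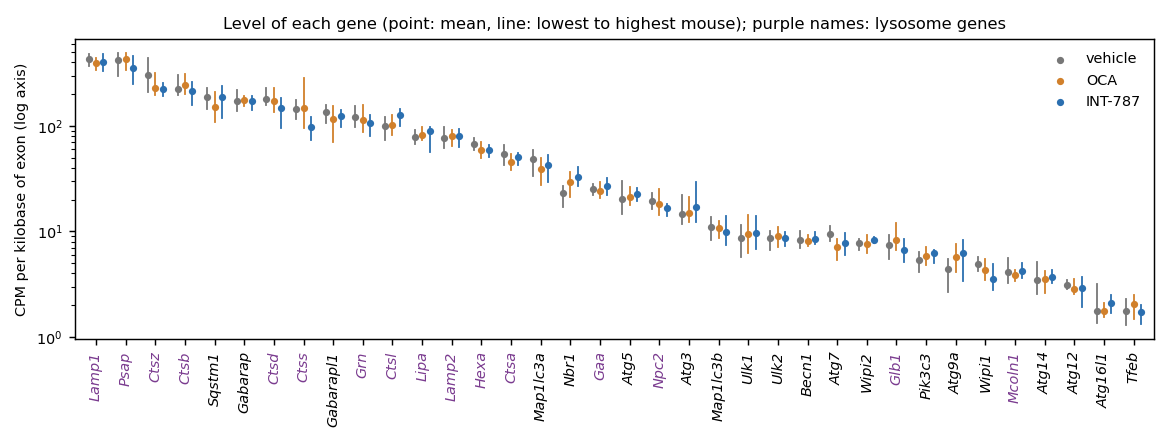
CPM per kilobase of exon (vertical, log axis) for the 36 genes, ordered by the mean of the group means, in vehicle (n = 10), OCA (n = 9), and INT-787 (n = 9) mice. Points are group means and lines run from the lowest to the highest mouse. The 4 genes at the left are lysosomal, and the 3 groups overlap at every gene.

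The groups were compared by the quasi-likelihood test of edgeR, and a gene was called changed where its Benjamini-Hochberg adjusted p, taken over the 12580 tested genes, did not exceed 0.05. Each adjusted p below is from that test unless another fit is named. INT-787 changed 8 of the 36 genes (22.2%) compared with vehicle, where 19.6% of all tested genes changed. Of these, 4 rose (10.2% of all tested genes rose) and 4 fell (9.48% fell). OCA changed 3 of 36 (8.33%) where 6.6% of all tested genes changed. Of these 3, 1 rose (4.15% of all genes) and 2 fell (2.45%). Both shares are near those of all genes, so the counts are not a result about autophagy and lysosome genes in particular. The median log2 fold change of the 36 genes was -0.0077 with INT-787 and 0.00054 with OCA, beside -0.0010 and 0.018 over all tested genes. Both comparisons use the same vehicle mice and are given side by side. Under upper-quartile scaling INT-787 changed 11 of the 36 (3 rose, 8 fell) where 20.3% of all tested genes changed, and 37.5% of all calls were rises in place of 51.7%. The difference of these shares was not tested. The ranges of the groups separated for 0 of the 36 genes in each comparison, where they separated for 2.66% of all tested genes with INT-787 and 0.89% with OCA against vehicle, and for 0.509% between the drugs. At these shares 0 of 36 is near the background.

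**Figure D2:**
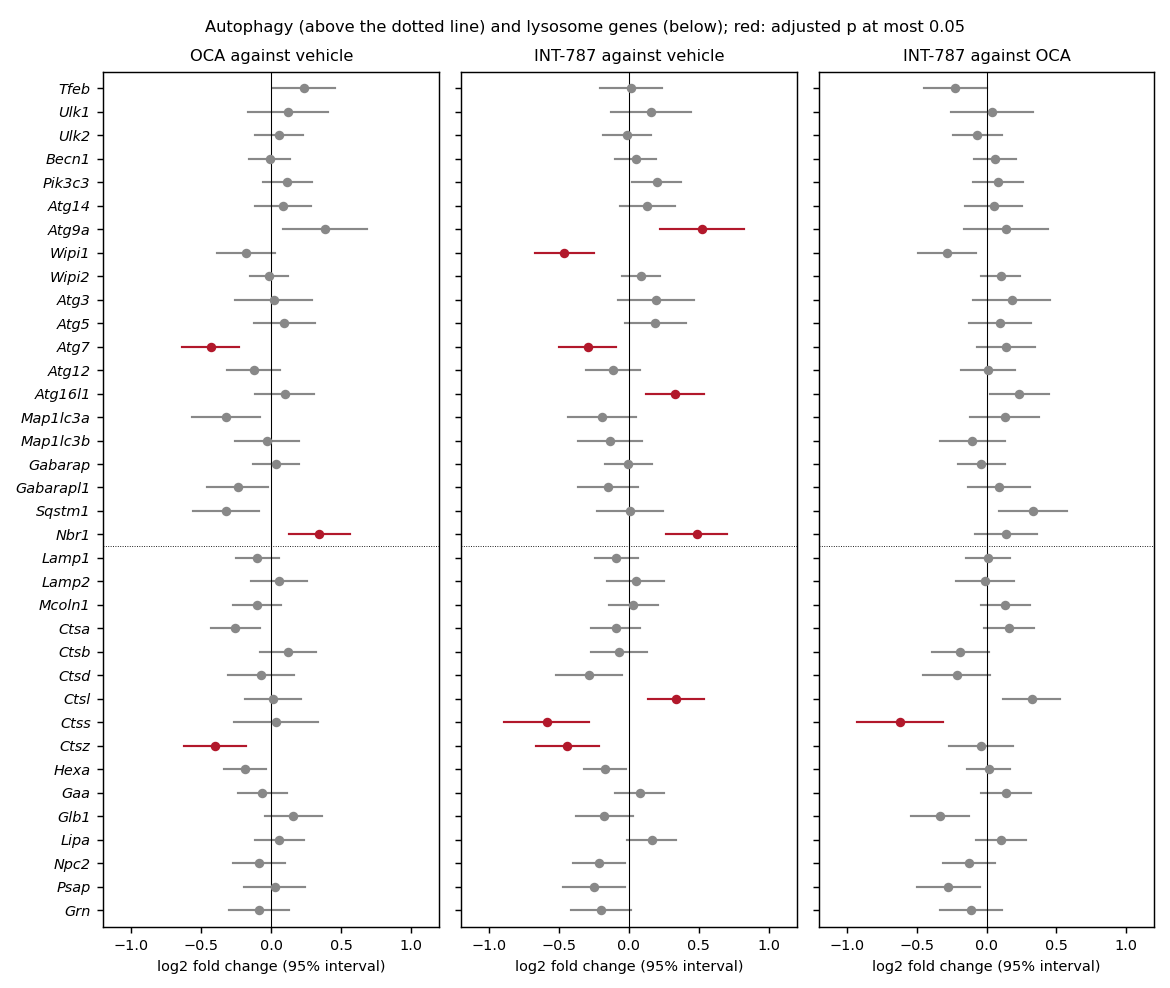
Log2 fold change (horizontal) with its 95% interval for each of the 36 genes in OCA (n = 9) against vehicle (n = 10), INT-787 (n = 9) against vehicle, and INT-787 against OCA. Red marks an adjusted p of at most 0.05, for 3, 8, and 1 genes, and most intervals in grey span 0.

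Of the 36 genes, the 6 that regulate or start autophagosome formation were not called. *Tfeb* averaged 9.95 ± 1.87 CPM in vehicle mice (SD, n = 10), 11.5 ± 1.78 in OCA mice (n = 9), and 9.85 ± 1.22 in INT-787 mice (n = 9). Its log2 fold change was 0.24 with OCA (adjusted p = 0.229 by edgeR) and 0.01 with INT-787 (adjusted p = 0.954 by edgeR), and the OCA value passed the threshold in 1 alternative fit, with sets of neighbouring sample numbers as a term (0.34, adjusted p = 0.0381). For *Ulk1* and *Ulk2*, the kinases that start the process, and for *Becn1*, *Pik3c3*, and *Atg14*, subunits of the lipid kinase that marks the forming membrane, log2 fold changes were between -0.01 and 0.20 in both comparisons with vehicle. Among these the largest was *Pik3c3* with INT-787 (0.20, adjusted p = 0.102 by edgeR).

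Genes acting on the growing membrane moved in opposite directions with INT-787. *Wipi1* (ENSMUSG00000041895, chr11:109573331-109611967, minus strand), which encodes a protein that binds the phosphoinositide made by the lipid kinase, was at 18.4 to 24.96 CPM with vehicle (median 21.5), 15.4 to 24.4 with OCA (median 17.7), and 12.2 to 21.7 with INT-787 (median 14.7). All but 1 of the 9 INT-787 mice lay below the lowest vehicle mouse. *Wipi1* fell by 0.46 on the log2 scale with INT-787 (SE 0.10, adjusted p = 0.00136 by edgeR) and was -0.18 with OCA (adjusted p = 0.364). This call held in every alternative fit and with each mouse left out. Its relative *Wipi2* was at 0.09 with INT-787 and -0.02 with OCA.

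*Atg9a* (ENSMUSG00000033124, chr1:75180860-75192196, minus strand), the transmembrane protein that brings lipid to the forming autophagosome, was at 15.2 to 31.5 CPM with vehicle (median 27.3), 23.7 to 44.1 with OCA (median 31.7), and 19.7 to 48.0 with INT-787 (median 37.5). Of the 9 INT-787 mice, 6 were above the highest vehicle mouse and 1 was below the vehicle median. *Atg9a* rose by 0.52 with INT-787 (SE 0.15, adjusted p = 0.0105 by edgeR). This call was lost with the mean of macrophage markers as a covariate (0.41, adjusted p = 0.160 by edgeR), as described below. With OCA the difference was 0.38 (SE 0.15, adjusted p = 0.124). The gene shares 1832 exon bases with the annotated gene *Gm29253* on the same strand, so the assignment of some reads is uncertain.

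Of the conjugation enzymes, which attach the ubiquitin-like ATG8 proteins to membrane lipid, *Atg7* fell with both drugs. *Atg7* (ENSMUSG00000030314, chr6:114643097-114860614, plus strand) encodes the activating enzyme of both conjugation reactions. It was at 56.4 to 79.0 CPM with vehicle (median 66.8), 37.4 to 59.2 with OCA (median 49.3), and 41.8 to 67.3 with INT-787 (median 52.9). Of 9 mice in each drug group, 7 OCA mice and 5 INT-787 mice lay below the lowest vehicle mouse. *Atg7* fell by 0.43 with OCA (SE 0.10, adjusted p = 0.00525 by edgeR), a call kept in every alternative fit and with each mouse left out. With INT-787 it fell by 0.29 (SE 0.10, adjusted p = 0.0347 by edgeR), and this call was lost without a filter on low counts (adjusted p = 0.0513) and in 8 of 28 fits in which 1 mouse was omitted. Between the drugs *Atg7* differed by 0.14, with a 95% interval from -0.07 to 0.34.

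*Atg16l1* (ENSMUSG00000026289, chr1:87755870-87792428, plus strand) directs the conjugation complex to the membrane. It was at 13.2 to 30.3 CPM with vehicle (median 15.6), 14.9 to 20.03 with OCA (median 16.9), and 16.3 to 23.9 with INT-787 (median 19.2). Each INT-787 mouse was above the vehicle median, but the highest single value was that of vehicle replicate 6, the shallow library, from 33 counts. *Atg16l1* rose by 0.33 with INT-787 (SE 0.10, adjusted p = 0.0203 by edgeR) and by 0.40 without that mouse (adjusted p = 0.000936). The call was lost under upper-quartile scaling and with the mean of macrophage markers as a covariate (0.26, adjusted p = 0.190 by edgeR). *Atg3*, *Atg5*, and *Atg12* were not called, with log2 fold changes from -0.12 to 0.20. *Atg5*, at 0.19 with INT-787, passed the threshold without vehicle replicate 5 (0.27, adjusted p = 0.0460 by edgeR) and without vehicle replicates 5 and 6 (0.29, adjusted p = 0.0392).

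The 4 genes of the ATG8 family, *Map1lc3a*, *Map1lc3b*, *Gabarap*, and *Gabarapl1*, encode the proteins that coat the autophagosome and hold its cargo, and 0 of 4 were called with either drug by edgeR, DESeq2, or limma-voom. At an unadjusted p under 0.05, 0 differed with INT-787 and 2 were lower with OCA, where 32.3% and 18.5% of all tested genes were under that p. These were *Map1lc3a* at 45.7 ± 7.69 CPM against 57.4 ± 8.60 with vehicle (log2 fold change -0.32, adjusted p = 0.114 by edgeR) and *Gabarapl1* at 233 ± 49.97 against 276 ± 33.1 (-0.24, adjusted p = 0.202).

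The cargo receptors link ubiquitin-tagged cargo to the ATG8 proteins. *Nbr1* (ENSMUSG00000017119, chr11:101552149-101581951, plus strand) was at 117 to 185 CPM with vehicle (median 171), 144 to 250 with OCA (median 206), and 185 to 278 with INT-787 (median 217). All but 1 of the INT-787 mice and 7 of 9 OCA mice lay above the highest vehicle mouse. *Nbr1* rose by 0.49 with INT-787 (SE 0.11, adjusted p = 0.00133 by edgeR), in every alternative fit and with each mouse left out. With OCA it rose by 0.35 (SE 0.11, adjusted p = 0.0465 by edgeR), but this call was kept in only 3 of 11 alternative fits and 9 of 28 fits with 1 mouse left out, and was lost without vehicle replicates 5 and 6 (0.31, adjusted p = 0.102).

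*Sqstm1*, which encodes p62 and is itself degraded with its cargo, was at 486 to 767 CPM with vehicle (median 619), 363 to 700 with OCA (median 496), and 403 to 798 with INT-787 (median 618). The group ranges overlapped widely, and 3 OCA mice were below the lowest vehicle mouse. The difference from vehicle was -0.32 with OCA (SE 0.12, adjusted p = 0.0986 by edgeR) and 0.01 with INT-787 (adjusted p = 0.968). The OCA value passed the threshold without OCA replicate 4 (-0.39, adjusted p = 0.0306) and when sets of neighbouring sample numbers entered the fit (-0.33, adjusted p = 0.0445).

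**Figure D3:**
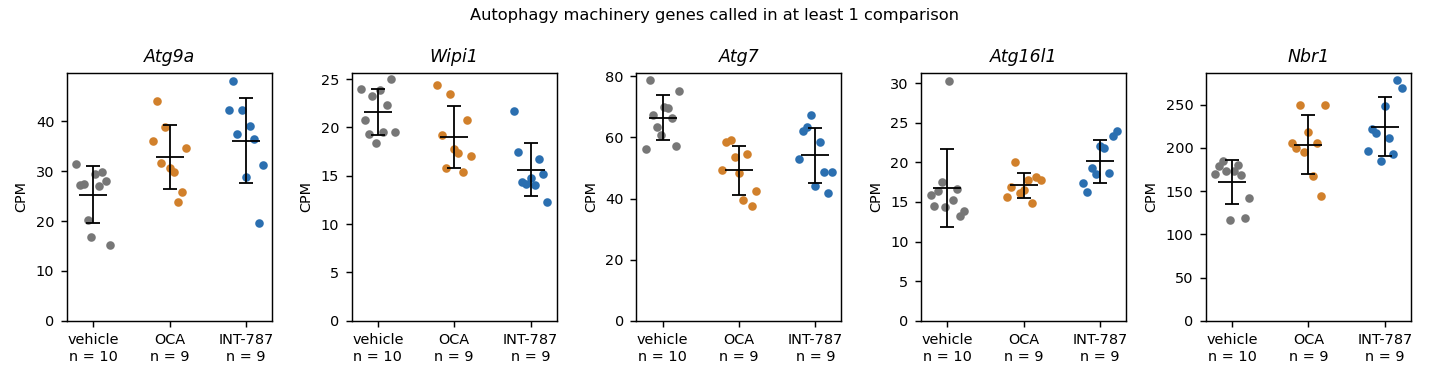
CPM (vertical, from 0) in each mouse for the 5 autophagy genes called in at least 1 comparison, in vehicle (n = 10), OCA (n = 9), and INT-787 (n = 9). Bars are the mean ± SD. *Wipi1* and *Atg7* sit lower with INT-787 and *Atg9a*, *Atg16l1*, and *Nbr1* sit higher, and the single high vehicle point of *Atg16l1*, at 30.3 CPM, is replicate 6.

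Of the 20 autophagy genes, INT-787 changed 5 (3 rose, 2 fell) and OCA changed 2 (1 rose, 1 fell). The lysosomal genes showed 3 calls with INT-787 (1 rose, 2 fell) and 1 with OCA (which fell) among 16, and all of these were cathepsins. These class counts stand beside 19.6% and 6.6% of all tested genes changed with INT-787 and OCA, and are no result about either class. *Lamp1*, *Lamp2*, and *Mcoln1*, which encodes a calcium channel of the lysosomal membrane, had log2 fold changes between -0.10 and 0.06 in both comparisons with vehicle.

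The 6 cathepsin genes did not move together. *Ctsz* (ENSMUSG00000016256, chr2:174427493-174439039, minus strand), a cysteine carboxypeptidase, was at 305 to 637 CPM with vehicle (median 415), 286 to 453 with OCA (median 326), and 275 to 369 with INT-787 (median 322). Each INT-787 mouse and 8 of 9 OCA mice were below the vehicle median, while only 2 and 3 mice were below the lowest vehicle mouse. *Ctsz* fell by 0.44 with INT-787 (SE 0.11, adjusted p = 0.00441 by edgeR) and by 0.40 with OCA (SE 0.11, adjusted p = 0.0205 by edgeR). The INT-787 call was kept in every fit, and the OCA call was lost when sets of neighbouring sample numbers entered it (-0.35, adjusted p = 0.0546). Between the drugs the difference was -0.04, with a 95% interval from -0.27 to 0.19.

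*Ctss* (ENSMUSG00000038642, chr3:95526786-95556403, plus strand) encodes a protease known for trimming the invariant chain in antigen-presenting cells. It was at 157 to 238 CPM with vehicle (median 201), 129 to 391 with OCA (median 190), and 100 to 164 with INT-787 (median 132). Of the 9 INT-787 mice, 7 were below the lowest vehicle mouse, whereas the OCA mice lay on both sides of the vehicle range. *Ctss* fell by 0.59 with INT-787 (SE 0.15, adjusted p = 0.00521 by edgeR). This call was lost with the mean of macrophage markers as a covariate (-0.32, adjusted p = 0.217 by edgeR), as described below. With OCA the difference was 0.03 (SE 0.15, adjusted p = 0.953).

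*Ctsl* (ENSMUSG00000021477, chr13:64359337-64370890, minus strand), a cysteine endopeptidase, was at 479 to 782 CPM with vehicle (median 644), 532 to 830 with OCA (median 640), and 652 to 945 with INT-787 (median 847). Each INT-787 mouse was above the vehicle median and 6 of 9 were above the highest vehicle mouse. *Ctsl* rose by 0.34 with INT-787 (SE 0.10, adjusted p = 0.0137 by edgeR) and was at 0.01 with OCA (adjusted p = 0.978). It shares 1742 exon bases with *Gm47123* on the opposite strand and 395 with *Gm49230* on the same strand, so the assignment of some reads is uncertain. The INT-787 call was kept without vehicle replicate 5. It was lost with the mean of macrophage markers as a covariate (0.30, adjusted p = 0.109 by edgeR), as described below.

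*Ctsa*, *Ctsb*, and *Ctsd* were not called by edgeR. The nearest to the threshold was *Ctsa*, which encodes the protective protein of beta-galactosidase and neuraminidase, at 214 ± 26.99 CPM with OCA against 256 ± 36.9 with vehicle (log2 fold change -0.26, adjusted p = 0.0699 by edgeR). *Ctsa* shares 819 exon bases with *Neurl2* and *Pltp* on the opposite strand, so the assignment of some reads is uncertain. Its highest vehicle mouse was replicate 5, at 314 CPM. DESeq2 called *Ctsa* with OCA (-0.27, adjusted p = 0.0262), as did edgeR with upper-quartile scaling (adjusted p = 0.0359) and with at least 10 counts in every mouse (adjusted p = 0.0467). It was also called by edgeR without vehicle replicate 1 (adjusted p = 0.0309), OCA replicate 2 (0.0416), vehicle replicate 8 (0.0452), or OCA replicate 7 (0.0491), but not without vehicle replicate 5. *Ctsd*, which encodes the main aspartic protease of lysosomes and shares 808 of its 2351 exon bases with *Gm49369* on the same strand, so that the assignment of some reads is uncertain, was at 350 ± 73.9 CPM with INT-787 against 427 ± 54.0 (-0.28, adjusted p = 0.0787), and was called with upper-quartile scaling (-0.35, adjusted p = 0.0330) and with at least 10 counts in every mouse (-0.31, adjusted p = 0.0496).

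**Figure D4:**
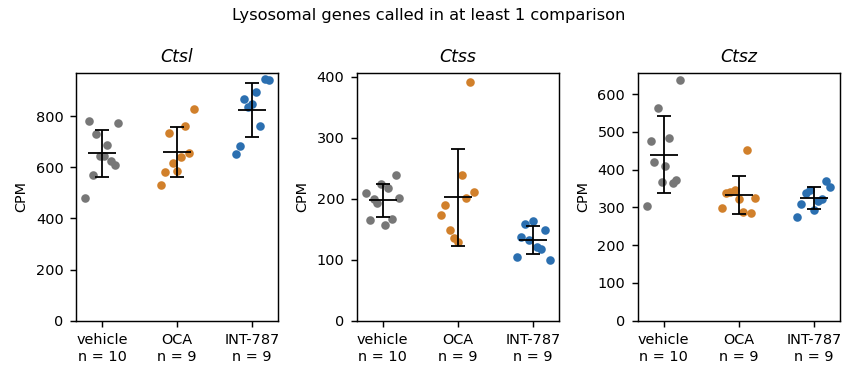
CPM (vertical, from 0) in each mouse for the 3 lysosomal genes called in at least 1 comparison, in vehicle (n = 10), OCA (n = 9), and INT-787 (n = 9). Bars are the mean ± SD. Against vehicle, *Ctsl* sits higher and *Ctss* lower with INT-787, *Ctsz* sits lower with both drugs, and 1 OCA mouse is at 391 CPM for *Ctss*.

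The glycosidases *Hexa*, *Gaa*, and *Glb1*, the acid lipase gene *Lipa*, and *Npc2*, *Psap*, and *Grn*, which encode a cholesterol carrier, the saposin precursor, and progranulin, gave 0 calls with either drug. At an unadjusted p under 0.05 (32.3% of all tested genes with INT-787, 18.5% with OCA), 3 of these 7 were lower with INT-787, namely *Hexa* (-0.17), *Npc2* (-0.21), and *Psap* (-0.25), with adjusted p of 0.0962, 0.0941, and 0.105 by edgeR, and 1, *Hexa* (-0.19, adjusted p = 0.137), was lower with OCA. *Lipa* was at 602 ± 83.9 CPM with INT-787, 560 ± 62.9 with OCA, and 538 ± 45.1 with vehicle, a log2 fold change of 0.16 with INT-787 (adjusted p = 0.198). DESeq2 and limma-voom also called 0 of the 7 against vehicle, whereas edgeR with upper-quartile scaling called *Hexa* (adjusted p = 0.0233), *Npc2* (0.0359), and *Psap* (0.0372) lower with INT-787, and edgeR with at least 10 counts in every mouse called *Hexa* (0.0443). *Psap* was also called without vehicle replicate 5 (-0.30, adjusted p = 0.0465) and without INT-787 replicate 4 (-0.30, adjusted p = 0.0496).

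OCA and INT-787 were compared directly at the same dose and time, a single pair of compounds. Of the 36 genes, 1 (2.78%) differed, and it was lower with INT-787. The background was 5.38% of all tested genes, made up of 2.19% higher and 3.19% lower in INT-787 mice. Of the 20 autophagy genes 0 were called by edgeR, DESeq2, or limma-voom, and 3 had an unadjusted p under 0.05, as did 18.9% of all tested genes. *Ctss* was lower with INT-787 than with OCA by -0.62 on the log2 scale (SE 0.15, 95% interval -0.93 to -0.31, adjusted p = 0.0130 by edgeR). The call was lost when sets of neighbouring sample numbers entered the fit (-0.57, adjusted p = 0.0582), and without OCA replicate 8, the highest OCA mouse, the difference was -0.44 (adjusted p = 0.0337).

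For the other 35 genes no difference between the compounds was called, which does not show that they act alike. The 95% interval of the difference lay within -0.5 and 0.5 for 32 of the 36, and within -1 and 1 for all of them. The intervals that left room for the largest differences were those of *Sqstm1*, higher with INT-787 by 0.33 (0.09 to 0.57, adjusted p = 0.0982 by edgeR), *Glb1*, which shares 165 exon bases with *Tmppe* on the same strand, at -0.33 (-0.54 to -0.12, adjusted p = 0.0503), and *Ctsl* at 0.32 (0.12 to 0.53, adjusted p = 0.0525). *Glb1* and *Ctsl* were called in 5 of 11 alternative fits each, *Glb1* among them without vehicle replicates 5 and 6 (adjusted p = 0.0495) and *Ctsl* with sets of neighbouring sample numbers as a term (0.36, adjusted p = 0.0192). That INT-787 changed *Wipi1*, *Atg9a*, *Atg16l1*, and *Ctsl* while OCA did not reach the threshold is therefore not a difference between the drugs by this test. With 1 mouse left out, *Ctsl* was called between the drugs in 7 of 28 fits and *Glb1* in 6. *Wipi1* was called between the drugs without INT-787 replicate 1 (-0.35, adjusted p = 0.0313 by edgeR), and *Sqstm1* without OCA replicate 4 (0.40, adjusted p = 0.0336) and without INT-787 replicate 9 (0.41, adjusted p = 0.0305).

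Macrophage and hepatocyte markers moved with treatment as well. None of the 20 macrophage markers was at 0 in any group. With INT-787 12 of 20 fell and 0 rose, with OCA 0 changed in edgeR's test (1 at an unadjusted p under 0.05), and between the drugs 7 were lower and 1 was higher with INT-787. Over all tested genes 9.48% fell and 10.2% rose with INT-787, 2.45% fell and 4.15% rose with OCA, and 3.19% were lower and 2.19% higher between the drugs, which is the background for each marker list here. The summed level of the macrophage markers was 1343 to 1760 CPM with vehicle (median 1508), 988 to 2076 with OCA (median 1231), and 849 to 1441 with INT-787 (median 1062). *Cd68*, itself a lysosomal glycoprotein of macrophages, fell by 0.69 with INT-787 (adjusted p = 0.000846 by edgeR), whereas *Adgre1*, which encodes F4/80, was at -0.41 (adjusted p = 0.165). Of 8 markers of lipid-associated macrophages, 7 fell with INT-787 and 0 changed with OCA (2 at an unadjusted p under 0.05). DESeq2 and limma-voom also called 0 in both lists with OCA. Between the drugs 7 of the 8 were lower with INT-787, among them *Lgals3* (-1.13, adjusted p = 4.6e-05 by edgeR), as were 3 of 8 stellate cell markers. The marker lists of stellate cells (5 of 8 fell), endothelium (3 of 7), cholangiocytes (2 of 6), and lymphocytes and neutrophils (1 of 9) also held calls with INT-787, all lower. These lists are not fully separate. *Spp1* (-0.74 with INT-787, adjusted p = 0.00207 by edgeR) is counted among the cholangiocyte and the lipid-associated macrophage markers alike. The lymphocyte and neutrophil markers were low, with group means of log2 CPM from -0.03 to 0.29. Of 11 hepatocyte markers, 6 rose with each drug, including *Alb* with OCA (0.62) and INT-787 (0.45).

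With the mean of the macrophage markers as a covariate, the difference of *Ctss* from vehicle with INT-787 was -0.32 (adjusted p = 0.217 by edgeR) in place of -0.59, and that from OCA was -0.43 (adjusted p = 0.120). The calls of *Atg9a* (0.41, adjusted p = 0.160), *Atg16l1* (0.26, adjusted p = 0.190), and *Ctsl* (0.30, adjusted p = 0.109) with INT-787 were lost too, with smaller shifts in the estimate. Whether cell composition has a part in these results was not tested. Those of *Ctsz* (-0.47, adjusted p = 0.0169), *Wipi1* (-0.45, adjusted p = 0.0162), *Atg7* (-0.40, adjusted p = 0.0280), and *Nbr1* (0.43, adjusted p = 0.0223) remained. Over all genes the share called with INT-787 was 8.78% in that fit.

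To relate each gene to the markers apart from treatment, deviations from the group means were correlated over the 28 mice, with p from permuting mice within groups and adjusted over all tested genes. In this permutation test 0 of the 36 genes passed (2 had an unadjusted p under 0.05, and 0 passed with Spearman's rho, 3 of them with an unadjusted p under 0.05), where 0.477% of all tested genes passed with a positive and 0.00795% with a negative correlation. *Ctss* had the highest correlation with the macrophage marker mean (Pearson r = 0.545, permutation p = 0.00462, adjusted p = 0.219; Spearman rho = 0.564, permutation p = 0.00327, adjusted p = 0.299). Without the 2 mice farthest from the median marker level r was 0.628 (adjusted p = 0.0511). Within groups r was 0.463 in vehicle, 0.544 in OCA, and 0.727 in INT-787 mice. Over the 6 cathepsins the median r was -0.011, with *Ctsz* at -0.128 and *Ctsl* at -0.137. It was -0.105 over the 16 lysosomal genes, -0.237 over the 20 autophagy genes, and -0.00511 over all tested genes. The groups ran in opposite directions for *Ctsb*, with r of 0.534, 0.561, and -0.701 in vehicle, OCA, and INT-787 mice, and for *Ctsd*, with 0.048, 0.781, and -0.561. This was not particular to these cathepsins. It also held for other lysosomal genes, among them *Lamp2* (0.557, -0.339, and -0.792), *Hexa* (-0.779, 0.595, and -0.660), and *Glb1* (0.754, 0.595, and -0.471). The medians above therefore pool groups that differ in sign. Against the lipid-associated macrophage markers, 1 of the 36 genes passed, *Ctsb* (r = 0.646, adjusted permutation p = 0.0368), where 0.874% of all tested genes passed with a positive and 0.286% with a negative correlation. The next lowest adjusted permutation p were those of *Gabarapl1* (r = -0.645, 0.0539), *Ctss* (r = 0.659, 0.0654), and *Ctsd* (r = 0.656, 0.0669).

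Against the mean of the hepatocyte markers, 3 of the 36 genes passed the same permutation test (4 with Spearman's rho), where 9.28% of all tested genes passed with a positive and 4.44% with a negative correlation. The count is no higher than this background. *Ctsl* had the highest correlation of the 36 (r = 0.793, rho = 0.771, permutation p = 1e-05 for both, the smallest these resamples can give, adjusted p = 0.00096 and 0.00145). Its r was 0.754 without the 2 mice farthest from the median, and 0.737, 0.899, and 0.749 in vehicle, OCA, and INT-787 mice. *Map1lc3b* also passed on the positive side (r = 0.542, adjusted permutation p = 0.0361). *Wipi1* passed on the negative side (r = -0.553, adjusted permutation p = 0.0325), with -0.473, -0.588, and -0.617 within the groups. *Ctsz* did not pass (r = 0.518, adjusted permutation p = 0.0533). These points share their library and its scaling.

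**Figure D5:**
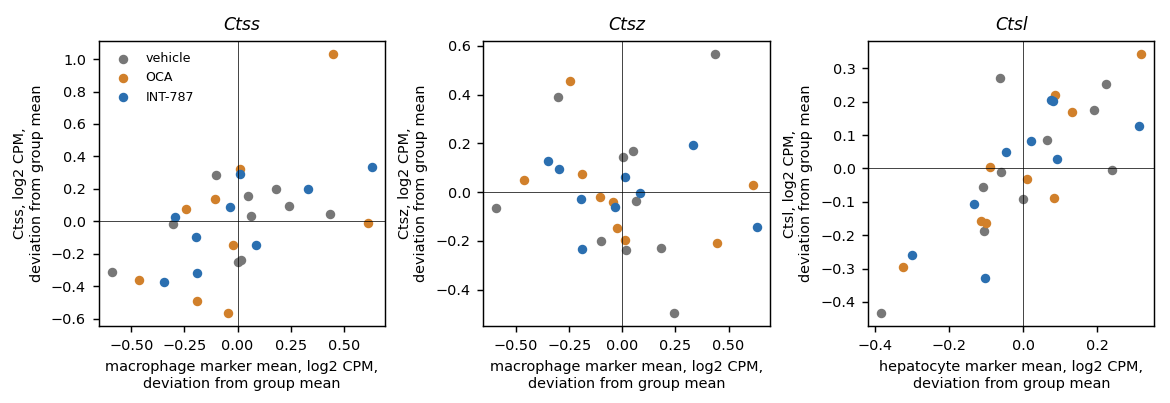
Deviation of log2 CPM from the group mean for *Ctss* and *Ctsz* (vertical) against that of the macrophage marker mean, and for *Ctsl* against that of the hepatocyte marker mean, with 1 point per mouse (28 mice). The points of *Ctss* slope upward (r = 0.545, which missed the adjusted threshold), those of *Ctsz* do not (r = -0.128), and those of *Ctsl* slope upward in each group (r = 0.793).

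The remaining genes of the pathways, taken from lists of pathway membership, were called in shares between 14.3% and 29.4% with INT-787 and between 0% and 8.82% with OCA. Beside them stand 19.6% of all tested genes changed with INT-787 (10.2% rose, 9.48% fell) and 6.6% with OCA (4.15% rose, 2.45% fell), so the counts below are given as a description and not as a result about a list. Of 35 other autophagy genes, 5 rose and 0 fell with INT-787, and 0 were called with OCA in edgeR's test (3 at an unadjusted p under 0.05, and 0 by DESeq2 or limma-voom). They included *Epg5*, which tethers autophagosomes to lysosomes (0.59, adjusted p = 0.00673 by edgeR), *Retreg1*, a receptor for degradation of the endoplasmic reticulum (0.45, adjusted p = 0.00346), *Ambra1*, a partner of beclin 1 (0.42, adjusted p = 0.00324), and *Atg13*, a subunit of the ULK1 complex (0.32, adjusted p = 0.00640).

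Of 34 other lysosomal enzymes and cofactors, 9 fell and 1 rose with INT-787, 2 fell and 1 rose with OCA, and between the drugs 2 were called, both lower in INT-787 mice (3.19% of all tested genes were lower). *Dpp7*, a dipeptidyl peptidase, fell with INT-787 (-0.67, adjusted p = 2.14e-05 by edgeR) and OCA (-0.45, adjusted p = 0.00533). *Lgmn*, which encodes the asparaginyl endopeptidase legumain, fell with INT-787 (-0.55, adjusted p = 9.17e-05) and was lower than with OCA (-0.57, adjusted p = 0.000446). *Naglu*, an enzyme of heparan sulfate breakdown, rose with INT-787 (0.48, adjusted p = 0.000329) and OCA (0.32, adjusted p = 0.0321).

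Of 32 other lysosomal membrane proteins and proton pump subunits, 4 rose and 3 fell with INT-787, 1 rose with OCA, and between the drugs 2 were lower with INT-787 (again beside 3.19%), namely *Cd63* (-0.64, adjusted p = 0.0256 by edgeR) and *Tpcn2* (-0.51, adjusted p = 0.0288). *Npc1*, the partner of NPC2 in cholesterol export, rose with INT-787 (0.47, adjusted p = 0.000168 by edgeR). *Abca2*, a lysosomal lipid transporter, rose with INT-787 (0.72, adjusted p = 0.000107) and OCA (0.83, adjusted p = 4.38e-05), and *Cd63*, a tetraspanin of lysosomes and exosomes, fell with INT-787 (-0.94, adjusted p = 0.000167). Of 29 nutrient-sensing genes upstream of autophagy, 5 rose and 2 fell with INT-787 and 1 rose with OCA. That one was *Foxo3*, a transcription factor that induces autophagy genes, at 0.50 with OCA (adjusted p = 0.01004 by edgeR) and 0.79 with INT-787 (adjusted p = 2.01e-05).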

How the data were processed

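The authors made stranded, poly(A)-selected libraries from snap-frozen liver and aligned the reads to GRCm38 with STAR, per the labels and the study's methods. They deposited raw counts per Ensembl gene for the 28 mice, without normalization. The counting program, its use of strand, and any filter are not given in the sources used here. Of its 21935 genes, 21858 had a GENCODE M21 symbol (GRCm38).

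Counts were analysed with R 4.3.3 and edgeR 4.0.16, with DESeq2 1.42.0 and limma 3.58.1 as alternatives. Genes were kept by filterByExpr, scaled by TMM, and tested with glmQLFit and glmQLFTest in 1 model of the 3 groups without covariates. P was adjusted by Benjamini-Hochberg over 12580 tested genes, with a threshold of 0.05. Total counts ran from 1009593 (vehicle replicate 6) to 22421506, and the shallowest library gives the least precise values. Any pair of mice sharing a treatment differed by more than sampling noise (chi-square per gene of at least 2.95). Correlations with marker means used log2 CPM with a prior count of 1 and 100000 resamples (Python 3.11.15, numpy 2.4.6, scipy 1.17.1). Their p was planned to be adjusted over the 36 genes and was instead adjusted over all tested genes. Scripts were tested on simulated data.

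The 36 genes and all lists were chosen with earlier results of these data known. Of the 36 genes, those called in at least 1 comparison are given in full, and of each other list at most the 4 called genes with the lowest adjusted p are named, with *Slc51b*, *Cyp7a1*, *Cd68*, *Adgre1*, and *Alb* named as checks whatever their call. *Sqstm1*, *Glb1*, and other genes near the threshold were described after their values were seen. Alternatives were DESeq2's or upper-quartile scaling, no filter or a minimum of 10 counts in each mouse, the tests of DESeq2 and limma-voom, only the 2 groups compared, the replicate number, the set of neighbouring sample numbers, or the macrophage marker mean as a term, leaving out vehicle replicates 5 and 6 or each mouse in turn, and stricter thresholds of 0.01 or an absolute log2 fold change of 0.5. Promoter windows came from RefSeq (GRCm38.p6).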

Additional observations from a re-analysis of the deposited data

Results flagged for a closer look

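In 9 of 108 groups of mice (36 genes in 3 groups), 1 mouse lay far from the others by Dixon's test at its 95% level, where chance alone flags about 1 in 20 groups, or 5.4 of 108.

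Of these values, 4 are in genes called in a comparison or come from the shallow library. *Atg16l1* was at 30.34 CPM in vehicle replicate 6 (33 counts) against 17.5 in the next mouse, and *Atg14* was at 22.07 CPM in the same mouse (24 counts) against 15.7. *Ctss* was at 391.0 CPM in OCA replicate 8 against 240 in the next OCA mouse, and *Ctsz* was at 453.3 CPM in OCA replicate 7 against 347.

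In genes without a call, *Atg3* was high in vehicle replicate 4 (69.24 CPM, next 49.5) and in INT-787 replicate 8 (93.06 CPM, next 60.5). *Glb1* was at 36.17 CPM in OCA replicate 8, above the next mouse at 26.3. *Pik3c3* was low in INT-787 replicate 9 at 22.6 CPM, below the next at 26.7. *Lipa* was low in INT-787 replicate 8 at 387.4 CPM, below the next at 599, and without that mouse *Lipa* passed the threshold against vehicle (adjusted p = 0.0302 by edgeR).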

How the results depend on the processing

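No called value changed direction. Of 12 calls, 4 were kept in all 11 refits and with each mouse left out (*Wipi1* and *Nbr1* with INT-787, *Atg7* with OCA, and *Ctsz* with INT-787). Of the 96 values not called, 13 passed the threshold in at least 1 fit.

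With INT-787 against vehicle, the count of 8 genes became 4 with the macrophage marker covariate, 4 at an adjusted p of at most 0.01, and 2 when the log2 fold change also had to reach 0.5 in size. Leaving out 1 mouse gave 7 to 10. Upper-quartile scaling, which moved the median of all genes by -0.06, gave 11 (3 higher, 8 lower), with 37.5% in place of 51.7% of all calls higher (OCA 52.3% in place of 62.9%, and 32.2% in place of 40.8% between the drugs). With OCA the count of 3 became 4 with DESeq2 or at least 10 counts in every mouse, 2 in 6 of the 11 refits, 1 at 0.01 and 0 with the fold limit, and was 2 to 3 with 1 mouse left out. Between the drugs the count of 1 became 2 with DESeq2's or upper-quartile scaling, with at least 10 counts in every mouse, and without vehicle replicates 5 and 6, 3 with DESeq2 or limma-voom, 0 with the macrophage covariate or at 0.01, and 1 to 3 with 1 mouse left out. The relation to lipid-associated in place of macrophage markers passed for 1 gene (*Ctsb*, r = 0.646) in place of 0, beside 0.874% of all tested genes. The cause of these changes was not tested.

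The replicate numbers were not treated as pairing the mice. Over 27 pairs with the same number the correlation of deviations was -0.239 to 0.415 (median 0.0731, over 0.1 in 11), and 9 of 28 mice were closest to their own number. Over 25 pairs from the same set of neighbouring numbers the median was 0.102, and with the set as a term the counts were 8, 3, and 1. Vehicle replicate 4 and OCA replicate 9 are each alone in their set. With the set as a term these mice therefore add nothing to the comparisons, and changes of calls in that fit also reflect their loss. For OCA, *Tfeb* and *Sqstm1* were called in place of *Nbr1* and *Ctsz*, and between the drugs *Ctsl* in place of *Ctss*. The replicate block gave 8 calls for INT-787 against vehicle, 2 for OCA against vehicle, and 2 for INT-787 against OCA. Values from vehicle replicate 6 are limited by its depth.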
